A study of Mus musculus with 8 samples.

Results

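Transcripts of the mitochondrial protein import machinery and of the mitochondrial carrier family were compared between polysomal and non-polysomal RNA of mouse oocytes. The genes were chosen by symbol alone, as every gene of the deposited table whose name starts with Timm, Tomm or Slc25a followed by a digit. This gave 66 of the 25574 genes listed, 22 of them Timm and Tomm genes (translocases) and 44 Slc25a genes (carriers). The data comprised 4 libraries of polysomal RNA (P) and 4 of non-polysomal RNA (NP), numbered 1 to 4 in each dataset. Both datasets came from oocytes at nuclear envelope breakdown (NEBD), the step at which the meiotic arrest ends, collected from CD1 mice aged 8 weeks that had been primed with gonadotropin. The denuded oocytes were cultured without the inhibitor of meiotic resumption for 180 min and then with 0.1 mg/ml cycloheximide, which holds ribosomes on mRNA, for 10 min. Each sucrose gradient was loaded with the lysate of 200 oocytes, so each library is a pool of cells. Heavier fractions gave P and lighter ones NP, while the study left out the lightest fraction, at the top of the gradient. The study could not exclude that this fraction held a small part of the stored mRNA particles. By the study's methods the NP fractions hold ribosomal subunits and monosomes, and the study places stored mRNA particles there too. An mRNA with a single ribosome thus counts as NP.

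Almost all mitochondrial proteins are encoded in the nucleus, made on cytosolic ribosomes and imported. The TOM complex of the outer membrane takes them in, the TIM23 complex of the inner membrane passes on those with a presequence, and the small TIM chaperones hand carriers to the TIM22 complex, which inserts them into the inner membrane. The Slc25a carriers, themselves cargo of that last route, move nucleotides, phosphate, citrate, amino acids and cofactors across the inner membrane. The oocyte supplies the mitochondria of the embryo and makes its proteins at this stage from stored mRNA.

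Values are FPKM, fragments scaled by the authors to gene length and library size, and a value of 0 was read only as listed at 0. The number to which a library had been scaled was recovered from the steps between its values. It was 1299377 to 7594638 in NP and 2677946 to 4699328 in P, so that 1 read on a gene of 1 kb was worth 0.132 to 0.770 FPKM in NP and 0.213 to 0.373 FPKM in P. All 10 oocyte marker genes were above 0, with sums of 6409 to 13010 FPKM in NP and 8747 to 32520 FPKM in P. The 10 granulosa and cumulus markers summed to 6.25 to 125 FPKM in NP and 10.5 to 62.6 FPKM in P, with Foxl2, Inhba and Amhr2 at 0 in all libraries. The 4 theca and stroma markers summed to at most 1.7 FPKM in NP and 0 FPKM in P, with Dcn and Col1a1 at 0 in all libraries. Of the blood markers, Ptprc, Hba-a1 and Hba-a2 were at 0 in all libraries, and Hbb-bs and Hbb-bt were not listed. An FPKM is a share of its library, so fewer copies of one mRNA and more copies of the others cannot be told apart.

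Of the 66 genes, 10 were listed at 0 in all 8 libraries, namely Tomm5 and the carriers Slc25a2, Slc25a18, Slc25a21, Slc25a29, Slc25a34, Slc25a41, Slc25a43, Slc25a45 and Slc25a47. Some 99.1% of the Tomm5 transcript is matched at 1 other place of the genome at 95% identity or more, which leaves its level uncertain. Slc25a37, the mitoferrin of red cell precursors, was above 0 only in P replicate 3, at 0.054 FPKM. The other 55 genes, 21 translocases and 34 carriers, had a mean above 0.1 FPKM in at least 1 dataset and were tested. Of these, 6 (10.9%, beside 15.1% of all genes tested) passed only through NP, 1 translocase (Tomm40l) and 5 carriers (Slc25a23, Slc25a24, Slc25a27, Slc25a42 and Slc25a46), and 0 only through P. Their negative direction was fixed by that filter, so the counts and medians that include them are a description. Of the tested genes, 34 were above 0 in all 8 libraries, 13 translocases and 21 carriers. In P, 13 of the 66 genes had a mean above 50 FPKM, 6 translocases and 7 carriers, and in NP there were 15, 7 translocases and 8 carriers. Both datasets shared 11 of these abundant genes.

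The most abundant translocase transcript was that of Timm8b, a small TIM chaperone, with a mean of 331 ± 269 FPKM in NP and 207 ± 187 FPKM in P (SD, n = 4 each). Tomm22, Timm17a, Timm50 and Timm9 completed the top of that family, and Slc25a26, Slc25a38, Slc25a1, Slc25a17 and Slc25a5 led the carriers. Several members that are abundant in somatic tissues were low. Slc25a4, the ADP/ATP carrier of muscle, had a mean of 5.69 ± 4.69 FPKM in NP and 2.69 ± 2.75 FPKM in P, and Slc25a3, the phosphate carrier, 3.84 ± 2.34 and 5.51 ± 2.22 FPKM. Tomm40, the channel of the outer membrane, had 4.98 ± 3.65 and 5.96 ± 8.39 FPKM. No somatic sample was part of the data. Levels of different genes also depend on the gene length behind the FPKM. The length behind the values was 5550 bases for Slc25a3, the length of its annotated exons merged. For Tomm40 and Timm17a, lengths of 4239 and 1574 bases were found from the values. The annotated transcripts taken for these genes have 1612, 1646 and 7280 bases. Levels of neighbouring genes in this order overlapped widely between libraries, so no fine ranking within the abundant group can be read from them.

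**Figure D1:**
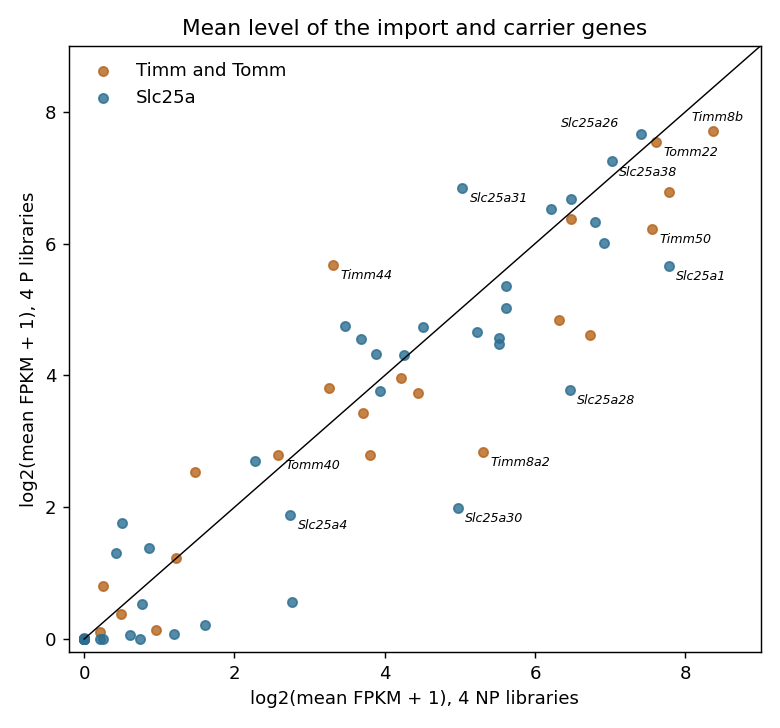
Mean level of each of the 66 genes in the 4 NP libraries (horizontal axis) and the 4 P libraries (vertical axis), both as log2(mean FPKM + 1), with translocases in brown, carriers in blue and the line of equal levels. Slc25a31 (means of 31.8 and 114 FPKM) and Timm44 (8.97 and 50.4 FPKM) lie well above the line, and Slc25a28, Slc25a30 and Timm8a2 well below it.

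The comparison of P with NP asks which of these stored mRNAs were more or less represented on polysomes than in the lighter fractions. No gene of either family passed the threshold of 0.1 on the adjusted p in limma, a linear model fitted to log2(FPKM + 1) of 14292 genes, against 3 of all genes tested (0.021%). The smallest adjusted p of the tested genes was 0.394. Their median standard error was 0.76, a 95% interval of 1.63 to either side on the log2 scale. At an unadjusted p below 0.05, a count that carries no correction for the number of genes, 9 of the 55 tested genes (16.4%) were lower in P, beside 9.47% of all genes tested. They were Timm13, Timm23, Timm50 and Timm8a2 among the translocases and Slc25a1, Slc25a12, Slc25a25, Slc25a28 and Slc25a30 among the carriers. Slc25a31 was the only one higher in P at that level, 1.82% of the tested genes beside 0.476% of all genes. Every P library lay below every NP library for 5 genes (Slc25a12, Slc25a23, Slc25a25, Timm50 and Timm8a2), 9.09% beside 5.92% of all genes, Slc25a23 having entered through NP alone, and above every NP library for Slc25a31, 1.82% beside 0.357%. The study describes independent replicate profiles, whose lighter and heavier fractions gave NP and P. The main fit treats all libraries as separate samples, without that pairing.

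The median log2 fold change of P over NP was −0.39 over all genes tested, and it was −0.54 over the 55 tested genes of these families. It was −0.60 over the translocases, of which 19 of 21 had a negative value, 1 of the 19 (Tomm40l) having entered through NP alone. Over the carriers it was −0.44, and 24 of 34 had a negative value, 5 of the 24 having entered through NP alone. Over all genes tested 71.4% were negative. The difference between the family medians was −0.16 and turned to 0.18 without NP replicate 4, to 0.08 without P replicate 3 and to 0.14 with a pseudocount of 0.1. When each library was scaled to one median FPKM, the median of all genes tested was −0.02 and those of translocases and carriers were 0.01 and 0.06. The genes at an unadjusted p below 0.05 then numbered 4 lower and 3 higher in P, in place of 9 and 1, beside 4.11% and 3.74% of all genes. Under quantile normalisation they numbered 5 lower and 3 higher, beside 4.04% and 2.55% of all genes.

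**Figure D2:**
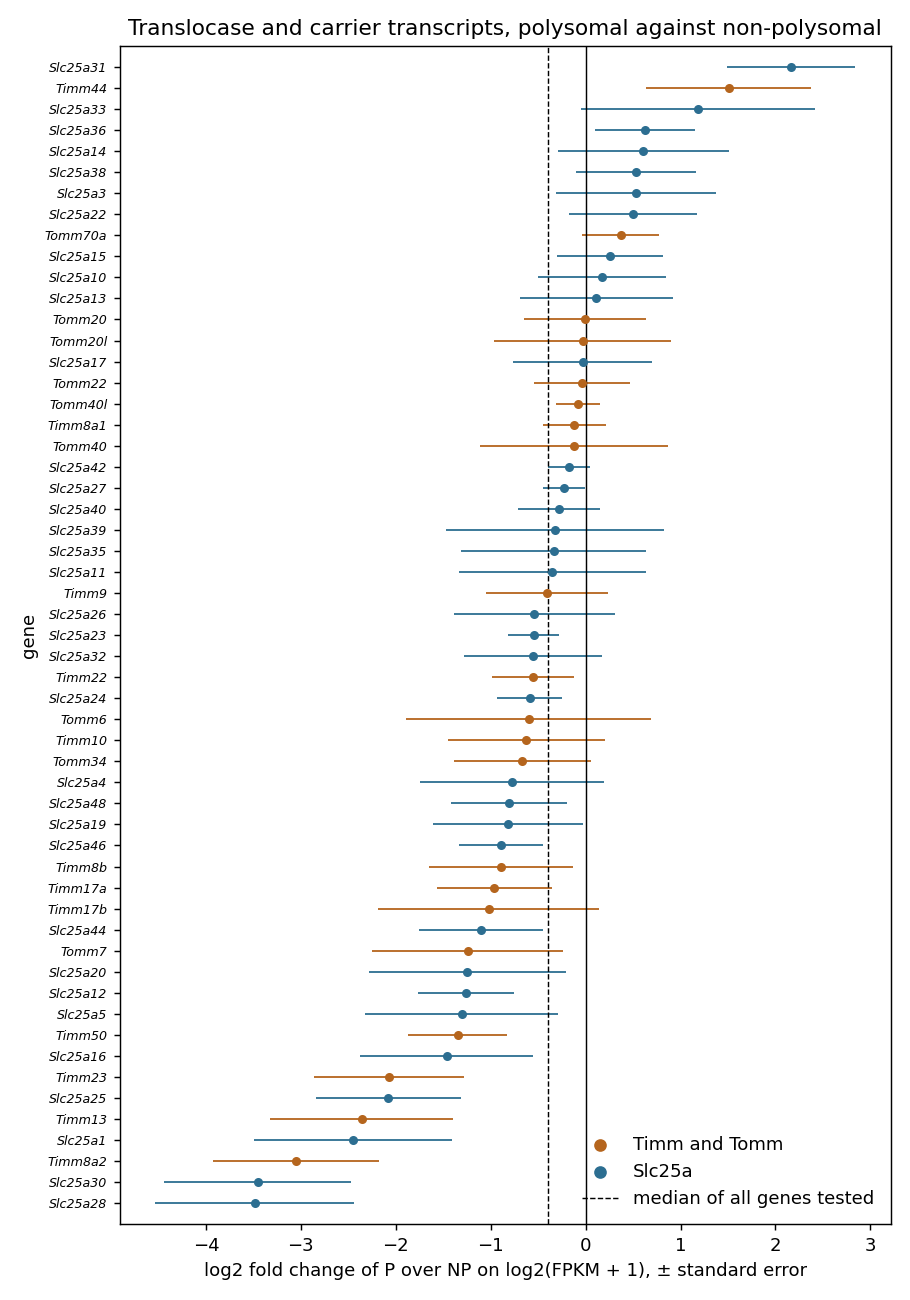
Log2 fold change of P over NP for the 55 tested genes, from limma on log2(FPKM + 1), with 1 standard error to either side, translocases in brown, carriers in blue, and a dashed line at the median of all genes tested (−0.39). Both families spread on either side of the dashed line, from −3.49 for Slc25a28 to 2.16 for Slc25a31.

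Slc25a31 encodes the ADP/ATP carrier known from germ cells, where it is needed for male meiosis. Its FPKM was 9.64, 12.3, 51.7 and 53.3 in NP replicates 1 to 4 and 138, 131, 108 and 80.9 in P replicates 1 to 4. All P libraries were above all NP libraries, although NP replicates 3 and 4 had higher values than NP replicates 1 and 2. The means were 31.8 ± 24.0 and 114 ± 25.7 FPKM (SD, n = 4 each), a ratio of 3.61. The log2 fold change was 2.16 (SE 0.68, 95% interval 0.71 to 3.62), with an adjusted p of 0.405 by limma. It stayed between 1.75 and 3.03 under the alternative settings, and the datasets did not overlap in any of those that compare all libraries with each other. The values rest on 26 to 1054 recovered reads per library, so the counts were not at the limit of detection.

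The 3 ADP/ATP carriers exchange the same nucleotides, and their summed transcripts were 148 ± 45.9 FPKM in NP and 197 ± 104 FPKM in P (SD, n = 4 each), with overlap. Slc25a31 made up 5.68%, 6.98%, 31.0% and 67.0% of this sum in NP replicates 1 to 4 and 41.7%, 89.2%, 49.1% and 91.0% in P replicates 1 to 4. These shares overlapped between the datasets because NP replicate 4 lay above P replicates 1 and 3. Slc25a5, the form of growing cells, had 157, 153, 107 and 25.9 FPKM in NP and 187, 15.2, 112 and 4.54 FPKM in P. Its range in P was wider than the difference between its means of 111 ± 60.9 and 79.5 ± 86.1 FPKM (log2 fold change −1.31, SE 1.02). The Slc25a5 transcript is also matched over its whole length at 2 other places of the genome at 95% identity or more, which leaves the origin of its reads uncertain. Slc25a4 contributed 0.42% to 6.12% in NP and 0.17% to 3.93% in P.

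**Figure D3:**
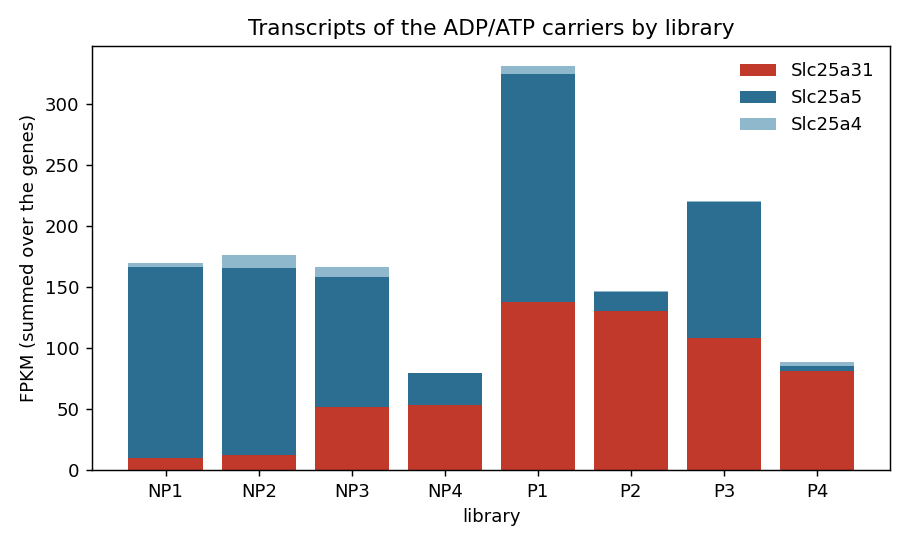
FPKM of the 3 ADP/ATP carrier genes in each library, stacked, with libraries on the horizontal axis and summed FPKM on the vertical axis starting at 0. The Slc25a31 segment is taller in each P library (80.9 to 138 FPKM) than in any NP library (9.64 to 53.3 FPKM), while the Slc25a5 segment varies in both datasets.

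Translation of stored oocyte mRNA during maturation is known to be controlled in part by the cytoplasmic polyadenylation element, a U-rich motif just before the polyadenylation signal. The motifs TTTTAT and TTTTAAT, which do not contain each other, were therefore searched on the sense strand in the 100 bases before an AATAAA or ATTAAA that lay in the last 40 bases of 1 annotated transcript per gene. Of 8852 tested genes with such a signal, 18.1% held a motif, as did 3 of 15 translocases and 5 of 27 carriers. The shares in both families were thus close to that of all genes. Among the carriers with a motif were Slc25a31 and Slc25a5, and among the translocases Timm8b, Tomm34 and Tomm6. The sites of the gene with the highest fold change and of 3 other abundant members are shown, in the sense orientation from GRCm38, with the motif in capitals.
Slc25a31: agagaaaaactaTTTTATggaattttgtga
Slc25a5: ctcaattatattTTTTATttcagtcactcc
Slc25a17: tatttcgaattgTTTTATattacaaaaaaa
Timm8b: tcaaaagtgaaaTTTTATttatgggaattc
The Slc25a31 site lies at chr3:40725974-40726003 on the plus strand, 88 bases before the signal in the 3′ UTR of the annotated transcript, and beyond the end of the gene as the deposited table lists it (chr3:40708855-40725593). The Slc25a5 site is at chrX:36798738-36798767 (plus strand), 32 bases before its signal, and that of Timm8b at chr9:50605243-50605272 (plus strand), 40 bases before. That of Slc25a17, at chr15:81318993-81319022 on the minus strand, lies 62 bases before its signal. The log2 fold changes of these genes were 2.16 for Slc25a31, −1.31 for Slc25a5, −0.89 for Timm8b and −0.03 for Slc25a17. Which transcript end the oocytes use was not measured.

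Among the receptors of the TOM complex, Tomm22, which joins the surface receptors to the channel, was abundant and evenly distributed. It had 246, 230, 123 and 181 FPKM in NP and 178, 230, 186 and 149 FPKM in P. The P range lay within the NP range, and the log2 fold change was −0.04 (SE 0.51, 95% interval −1.13 to 1.06), an interval that holds a change of about 1 on the log2 scale in either direction. Over the settings it ranged from −0.24 to 0.85, the highest with libraries brought to one median FPKM. Tomm20, the presequence receptor, had means of 1.33 ± 1.22 and 1.35 ± 1.11 FPKM, and Tomm70a, the receptor for carrier precursors, 0.191 ± 0.274 and 0.744 ± 1.2 FPKM. Tomm20 also shares 20.9% of its transcript with 4 other places of the genome. The small subunits Tomm6 and Tomm7, which steady the complex, had log2 fold changes of −0.60 (SE 1.29) and −1.24 (SE 1.0) with wide overlap. Tomm6 shares 1648 bases with Prickle4 on the same strand, so its reads cannot be assigned with certainty. Of the Tomm7 transcript, 30.5% is matched at 1 other place of the genome. Tomm34, a cytosolic factor that accompanies precursors, had a log2 fold change of −0.66 (SE 0.72).

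Within the TIM23 complex, Timm50, the receptor that takes presequences from the outer membrane, was lower in all P libraries. Its FPKM was 217, 210, 199 and 126 in NP and 47.4, 85.3, 88.7 and 73.2 in P, so the lowest NP library still exceeded the highest P library. The means were 188 ± 41.9 and 73.6 ± 18.7 FPKM (SD, n = 4 each), with a log2 fold change of −1.35 (SE 0.52, adjusted p 0.440 by limma). The values rest on 526 to 3882 recovered reads. Scaled to one median FPKM, its datasets overlapped, and its log2 fold change lay between −1.53 and −0.46 over the settings.

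Timm23, the channel subunit itself, had 94.4, 73.7, 46.5 and 101 FPKM in NP and 32.8, 5.76, 6.17 and 66.5 FPKM in P. The ranges overlapped through P replicate 4, and the log2 fold change was −2.07 (SE 0.79, adjusted p 0.428 by limma). Some 99.1% of its transcript is matched at 5 other places of the genome at 95% identity or more, and the part of these copies in the values was not tested. The partner subunit Timm17a had means of 219 ± 107 and 109 ± 52.3 FPKM (log2 fold change −0.96, SE 0.60), and made up 94.0% to 98.5% of the Timm17 transcripts in NP and 62.3% to 100% in P. The lowest of these shares came from P replicate 4, where Timm17b reached 49.5 FPKM against at most 1.66 FPKM in the other P libraries.

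Timm44, which tethers the import motor to the channel, had the opposite sign. It had 8.46, 13.7, 8.21 and 5.53 FPKM in NP and 8.60, 22.5, 14.4 and 156 FPKM in P. P replicate 4 stood far above all others, P replicate 1 lay within the NP range, and the log2 fold change was 1.51 (SE 0.87, adjusted p 0.560 by limma). Its smallest value over the settings was 0.66. Of the 5 members of the TIM23 complex, 2 were lower in P at an unadjusted p below 0.05, beside 9.47% of all genes, and the median was −1.02.

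The 6 small TIM chaperones all had negative log2 fold changes, with a median of −0.76 and values from −3.06 to −0.12, and 2 of them, Timm8a2 and Timm13, had an unadjusted p below 0.05. Over all genes tested 71.4% were negative and 9.47% were lower at that level. Timm8a2, a close relative of the deafness-dystonia gene Timm8a1, had 55.2, 21.9, 52.5 and 25.4 FPKM in NP and 0.699, 18.1, 0.986 and 4.91 FPKM in P. All P libraries lay below all NP libraries, though P replicate 2 came near to NP replicate 2. The means were 38.8 ± 17.5 and 6.17 ± 8.18 FPKM (log2 fold change −3.06, SE 0.87, adjusted p 0.394 by limma), and P replicates 1 and 3 rested on few reads, the lowest count being 3. Timm8a2 overlapped between the datasets under quantile normalisation and with libraries scaled to the same median FPKM.

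The other TIM8 genes differed in level. Timm8b made up 75.1% to 96.6% of the TIM8 transcripts in NP and 91.0% to 99.0% in P, with overlap, and Timm8a1 stayed below 1 FPKM in all libraries. Some 85.5% of the Timm8a1 transcript is matched at 1 other place of the genome, which leaves its level uncertain. Timm8a2 held 3.36% to 24.6% in NP and 0.519% to 8.81% in P. Timm13, which pairs with the TIM8 proteins, had 31.5, 97.4, 27.8 and 262 FPKM in NP and 7.30, 17.3, 2.39 and 67.1 FPKM in P. Replicate 4 was the highest of both datasets, the ranges overlapped, and the log2 fold change was −2.36 (SE 0.96, adjusted p 0.455 by limma).

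The hexamer partners Timm9 and Timm10, which carry precursors through the intermembrane space, had log2 fold changes of −0.41 (SE 0.64) and −0.62 (SE 0.82). Their means were 88.4 ± 27.8 and 82.0 ± 74.0 FPKM for Timm9 and 17.6 ± 10.4 and 14.6 ± 17.1 FPKM for Timm10, differences smaller than the spread between libraries. Timm22, the channel that receives the carriers, was scarce, at 0.937 ± 1.52 and 0.100 ± 0.201 FPKM, and was listed at 0 in 5 of the 8 libraries.

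**Figure D4:**
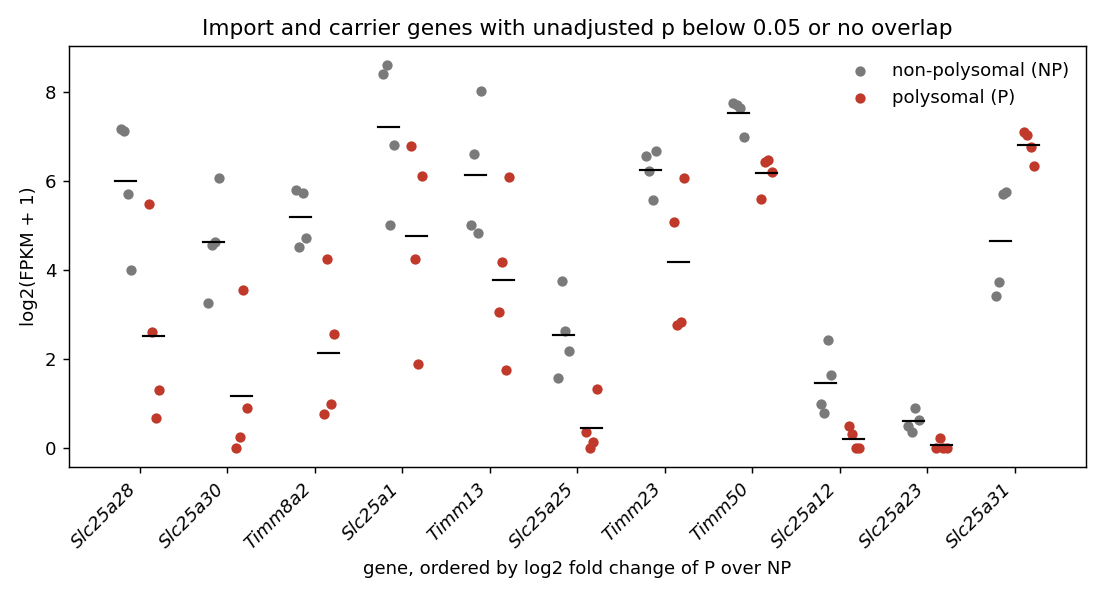
Values of the 11 genes with an unadjusted p below 0.05 or no overlap, as log2(FPKM + 1) on the vertical axis, with NP libraries in grey, P libraries in red and bars at the means of the log2 values. Slc25a31 is the gene whose red points lie above all grey ones, while red points lie below all grey ones for Timm8a2, Slc25a25, Timm50, Slc25a12 and Slc25a23.

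Among the carriers of adenine nucleotides and phosphate, the median log2 fold change was −0.54 over 9 tested genes. Slc25a25, a calcium-regulated carrier of ATP-magnesium against phosphate, had 1.96, 12.5, 5.22 and 3.55 FPKM in NP and 0.276, 0, 0.0971 and 1.53 FPKM in P. The datasets did not overlap, with a log2 fold change of −2.08 (SE 0.77, adjusted p 0.420 by limma). Slc25a25 rested on 6, 0, 2 and 19 recovered reads in P. Under quantile normalisation and with libraries scaled to the same median FPKM, Slc25a25 overlapped between the datasets. Its relative Slc25a23 had 0.414, 0.291, 0.882 and 0.547 FPKM in NP and 0.177 FPKM in P replicate 2, and was listed at 0 in the other P libraries. That gene had at most 34 recovered reads in a library and overlaps Crb3 and Gm17168 on the opposite strand, from which its reads cannot be told apart, and its log2 fold change of −0.54 had an adjusted p of 0.522 by limma. The third of this group, Slc25a24, was listed at 0 in all P libraries and in NP replicate 1, and reached 2.12 FPKM in NP replicate 3. Slc25a17, known as a carrier of the peroxisome, was at 88.4 ± 49.8 and 101 ± 65.1 FPKM.

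The carriers of carboxylates, amino acids and acyl groups had a median of −0.12, with 5 of 10 tested genes on each side of 0. Slc25a1, the citrate carrier, had 340, 391, 31.5 and 111 FPKM in NP and 110, 18.1, 2.69 and 68.6 FPKM in P. NP replicate 3 lay within the P range, and the log2 fold change was −2.45 (SE 1.04, adjusted p 0.471 by limma). Slc25a38, the glycine carrier that supplies heme synthesis, had 233, 182, 45.8 and 56.0 FPKM in NP and 203, 125, 125 and 153 FPKM in P. Its level was thus high in both datasets, with a log2 fold change of 0.53 (SE 0.63) and overlap. Slc25a15, the ornithine carrier, was similar at 73.0 ± 17.9 and 90.9 ± 35.2 FPKM.

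The pair of aspartate/glutamate carriers of the malate-aspartate shuttle differed between themselves. Slc25a12 had 0.981, 0.734, 4.40 and 2.13 FPKM in NP and 0.406, 0.255, 0 and 0 FPKM in P, without overlap. Its log2 fold change was −1.26 (SE 0.51, adjusted p 0.450 by limma). The P values rested on 14, 6, 0 and 0 recovered reads and NP replicate 2 on 7, so the separation lies near the limit of counting. Under quantile normalisation Slc25a12 overlapped between the datasets. Slc25a13, the more abundant form, had means of 18.2 ± 15.5 and 18.9 ± 14.2 FPKM and a log2 fold change of 0.11 (SE 0.81). Slc25a13 made up 84.4% to 95.3% of the pair in NP and 96.5% to 100% in P, ranges that did not overlap because of the low values of Slc25a12 in P. Slc25a11, the oxoglutarate carrier of the same shuttle, had a log2 fold change of −0.35 (SE 0.98), and Slc25a20, the carnitine carrier of fatty acid oxidation, −1.25 (SE 1.04). Slc25a10, the dicarboxylate carrier, was listed at 0 in replicates 3 and 4 of both datasets.

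Among carriers of cofactors, nucleotides and iron, the median was −0.54 over 9 tested genes. Slc25a28 and Slc25a30 are described here because their log2 fold changes were the lowest of all members, a choice made after the values were seen. Slc25a28, the mitoferrin of non-erythroid cells, had 144, 138, 51.8 and 15.1 FPKM in NP and 43.7, 5.15, 0.594 and 1.48 FPKM in P. P replicate 1 exceeded NP replicate 4, and the log2 fold change was −3.49 (SE 1.05, adjusted p 0.405 by limma). Its values in P replicates 3 and 4 rested on 4 and 6 recovered reads. Slc25a26, which brings S-adenosylmethionine into the matrix, had 175, 94.8, 133 and 271 FPKM in NP and 548, 136, 16.9 and 102 FPKM in P. The P libraries spread on both sides of all NP libraries, so the log2 fold change of −0.54 (SE 0.85) lay within the replicate spread. Slc25a39, which carries glutathione, had a log2 fold change of −0.32 (SE 1.15). Without P replicate 3 these values were 0.33 for Slc25a26 and 0.94 for Slc25a39.

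The uncoupling-like and less defined carriers had a median of −0.57 over 6 tested genes. Slc25a30, a protein related to the uncoupling proteins, had 8.63, 22.6, 23.7 and 66.9 FPKM in NP and 0, 0.183, 10.8 and 0.876 FPKM in P. The ranges overlapped only through P replicate 3, which was above NP replicate 1, and the log2 fold change was −3.46 (SE 0.99, adjusted p 0.394 by limma). Its recovered reads in P numbered 0, 1, 82 and 4. The abundant Slc25a48, a choline carrier of the inner membrane, had 239, 96.9, 79.0 and 65.2 FPKM in NP and 76.7, 33.4, 54.8 and 87.7 FPKM in P, with overlap and a log2 fold change of −0.81 (SE 0.61).

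Summed over each library, the tested translocases had 1334 ± 489 FPKM in NP and 834 ± 413 FPKM in P, and the tested carriers 1392 ± 373 and 1147 ± 477 FPKM (SD, n = 4 each), and both sums overlapped between the datasets. The median translocase stood at the 66.6th percentile of the tested genes of its library in NP and the 62.7th in P, and the median carrier at the 66.6th and the 65.0th. The FPKM medians were 14.5 ± 7.59 and 7.80 ± 6.77 FPKM for translocases and 13.0 ± 3.76 and 7.80 ± 3.62 FPKM for carriers. Translocases are short, with a median coding length of 456 bases in the annotation against 957 for carriers. Spearman's rho of coding length with the log2 fold change was 0.32 over 21 translocases and 0.01 over 34 carriers, a description across genes, which are not independent replicates. The study reasons that the fraction left out would hold mainly short transcripts, and reports no correlation of transcript length with the P/NP ratio. The part of that fraction in these values was not tested.

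The rest of the import pathway was taken from a list of 23 other genes, covering the sorting machinery of the outer membrane, the import motor, the processing peptidases and matrix chaperones. Of its 22 tested genes, 3 were lower in P at an unadjusted p below 0.05 (13.6%, beside 9.47% of all genes) and 0 were higher, with a median log2 fold change of −0.60. They were Immp1l, a subunit of the inner membrane peptidase, Dnajc15, a J protein of the motor, and Gfer, the oxidase of the intermembrane space relay. Immp1l did not overlap, at 69.2, 50.8, 36.5 and 107 FPKM in NP and 14.0, 25.8, 23.3 and 21.5 FPKM in P (log2 fold change −1.51, SE 0.60, adjusted p 0.447 by limma). Of 16 other transporters of the mitochondrial membranes, 9 were tested, none had an unadjusted p below 0.05 in limma, and the median was −0.54. None of the genes of either list passed the adjusted threshold.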

How the data were processed

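RNA from pooled polysomal and non-polysomal gradient fractions was depleted of rRNA, reverse transcribed with random and oligo(dT) primers and amplified. The labels name Trim Galore 0.4.1, FastQC 0.11.5, HISAT2 2.0.5 and GRCm38. The authors deposited FPKM values per gene and library on a linear scale; the quantifier was Seqmonk per the study's methods. Their mean columns matched means computed here within 0.000575 FPKM. The authors' tables of mean ratios and of their own differential test were not used.

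P and NP were compared 2-sided, over every gene whose dataset mean exceeded 0.1 FPKM in NP or P, with limma 3.58.1 in R 4.3.3 on log2(FPKM + 1), which understates changes of low genes, p-values being adjusted by Benjamini-Hochberg and called below 0.1. A log-scale model was used because the unit is FPKM. The script was tested on simulated data. Reads were recovered from the FPKM steps for 13116 genes, 54 of the tested members, and were used only for depth and for a voom fit. Amplified reads are not independent molecules. Sequences were taken from GRCm38 with GENCODE transcripts and compared by blastn 2.17.0 (at least 95% identity over 100 bases). Of the tested genes, 11732 had a transcript. Further tools were Python 3.11.15, numpy 2.4.6, pandas 2.3.3, scipy 1.17.1 and matplotlib 3.10.9.

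Members and lists were chosen with earlier results of these data known. Named were core members by role, the 5 most abundant of each family, members without overlap between the datasets and members at 0, which gave 44 genes. Slc25a15, Slc25a24, Slc25a27, Slc25a28, Slc25a30, Slc25a37, Slc25a42, Slc25a48 and Tomm34 fall outside that rule and were chosen after their values were seen. Timm10b, Timm21, Timm29 and Slc25a51 stand in the table under older symbols and were not selected. The alternatives were another pseudocount, other filters, other scalings, a replicate block, voom and leaving out each library.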

Additional observations from a re-analysis of the deposited data

Results flagged for a closer look

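In 18 of 82 groups of 4 libraries, all of them groups of the named members, the highest or lowest value stood apart by more than Dixon's 95% critical value. The remaining members were not examined. Chance alone passes the critical value in about 1 of 20 groups of normally distributed values. No such distribution was assumed for FPKM, and 28.2% of the groups of all genes tested passed it. Of the 18, 13 were in P and 5 in NP, and 4 were groups with the other libraries at 0, where any value passes. In P replicate 4 these were Timm44 at 156 FPKM, Timm9 at 192 FPKM, Timm17b at 49.5 FPKM and Tomm6 at 33.0 FPKM. In P replicate 1 they were Slc25a28 at 43.7 FPKM, Tomm40 at 18.5 FPKM, Tomm70a at 2.53 FPKM and Timm22 at 0.401 FPKM. In P replicate 2 they were Timm10 at 40.2 FPKM, Slc25a10 at 6.41 FPKM and Slc25a23 at 0.177 FPKM, and in P replicate 3 Slc25a30 at 10.8 FPKM and Slc25a37 at 0.054 FPKM. In NP they were Timm8b at 729 FPKM in replicate 4, Slc25a20 at 26.2 FPKM, Slc25a24 at 2.12 FPKM and Slc25a42 at 0.619 FPKM in replicate 3, and Slc25a10 at 3.12 FPKM in replicate 2. Without P replicate 1 the log2 fold change of Tomm70a was −0.04 in place of 0.37, and without P replicate 2 that of Slc25a10 was −0.54 in place of 0.17.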

How the results depend on the processing

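No member passed the adjusted threshold under any alternative run, including voom on recovered reads, where 85 of 12437 genes passed and the smallest adjusted p of a member was 0.132. The counts of members lower and higher at an unadjusted p below 0.05, and of members with all P libraries below and above all NP libraries, were 9, 1, 5 and 1. They became 5, 3, 1 and 2 under quantile normalisation and 4, 3, 1 and 2 with all libraries brought to one median FPKM. Of all genes tested, 4.04% were lower and 2.55% higher at that level under quantile normalisation. With one median FPKM these shares were 4.11% and 3.74%. For both scalings, no shares of all genes with P libraries wholly below or above NP were computed. The counts below and above under these scalings are therefore only a description of the members. With the replicate number as a block the unadjusted counts stayed at 9 and 1, no member passed, and all 4 differences between libraries of the same number were negative for 16 members (29.1%, beside 16.5% of all genes tested) and positive for 2, Slc25a31 and Timm44 (3.64%, beside 2.20%). The 16 included Slc25a1, Slc25a28, Slc25a30, Timm13 and Timm23, whose datasets overlap when the numbers are not used. Among the 16 was also Slc25a23, whose negative direction was fixed by its entry through NP alone. Same-numbered libraries deviated together with correlations of 0.139, 0.0518, 0.251 and 0.155, other numbers with −0.135 to 0.136. Each P library correlated best with the NP library of its own number, while NP replicate 2 correlated best with P replicate 1. The study took both fractions from each profile, so P and NP libraries are paired by design. Neither labels nor methods state that a number marks the same profile, so the block was kept as an alternative. The main standard errors and p-values leave the pairing out. With the block, the unadjusted p by limma fell from 0.028 to 0.0019 for Timm13 and from 0.0051 to 0.00047 for Slc25a28. It rose from 0.026 to 0.042 for Slc25a12, and the smallest adjusted p of a member was 0.193. Leaving out each library gave ranges of 6 to 10 (lower), 1 to 2 (higher), 5 to 10 (below) and 1 to 2 (above). Over all genes tested the shares lower and higher were then 7.51% to 10.9% and 0.255% to 1.14%. With 1 library fewer, any gene is less likely to overlap between the datasets. The shares of all genes below and above were not computed for these runs. The count below was 10 without P replicate 4 and 8 without P replicate 3, and without either NP replicate 2 or P replicate 1 the count above was 2, through Timm44. The median of translocases ranged from −0.86 to −0.25, that of carriers from −0.57 to −0.33 and their difference from −0.41 to 0.18. Of the 10 members with an unadjusted p below 0.05, Slc25a28, Slc25a30, Slc25a31 and Timm8a2 kept it under all 15 alternatives, Slc25a25 under 12, Slc25a12 and Timm23 under 11, Timm50 under 10, Timm13 under 9 and Slc25a1 under 7. Brought to one median FPKM, the log2 fold changes of Slc25a26, Timm9, Slc25a48 and Tomm34 were 0.35, 0.48, 0.08 and 0.16. Limits are the 4 libraries per dataset, the amplified cDNA, the missing strand and the reads shared with genome copies, and no scaling between P and NP was applied to the deposited values.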

Other observations

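The members did not share one highest library. Of the 52 tested genes above 0 in P, P replicate 1 was the highest P library for 19, P replicate 4 for 15, P replicate 2 for 14 and P replicate 3 for 4. In P, 9, 6, 13 and 13 of the tested genes were listed at 0 in replicates 1 to 4, and in NP 4, 7, 1 and 4. The carriers Slc25a24, Slc25a27, which resembles the uncoupling proteins, and Slc25a42, a carrier of coenzyme A, were listed at 0 in every P library and above 0 in at least 1 NP library, with NP means of 0.673, 0.190 and 0.155 FPKM. In NP replicate 3, the highest for these genes, Slc25a24 had 53 recovered reads and Slc25a42 had 27, and read numbers could not be recovered for Slc25a27.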
